A study of Mus musculus with 2 samples.

Results

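The Rab family of small GTPases was examined in cerebrum RNA of 1 wild-type mouse sample and 1 lag mutant sample at postnatal day 14, each hybridised to 1 Affymetrix Mouse Genome array. Members were all genes whose symbol consists of Rab, a number and at most 1 letter from a to d, taken from probe sets that the platform annotation pairs with a single gene. Rab7b was left out by the rule. This gave 58 genes, read by 129 probe sets, of 18194 genes in all. Mice with the recessive lag mutation carry a spontaneous splice site change in Kif14, a kinesin gene, which arose on a mixed background and was then backcrossed to C57BL/6J, and they develop severe hypomyelination with a small brain. The paper's account of the arrays names wild-type and mutant cerebra without saying whether they came from littermates. How many mice gave each RNA sample is not stated in the sources used here. The comparison asks how the molecular make-up of the cerebrum differs between the genotypes. With 1 array per genotype there is no replicate error, no test between genotypes was possible, and every difference below describes these arrays only.

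Rab proteins are molecular switches of membrane traffic. In the GTP-bound state, set by exchange factors, they sit on the membrane of a given organelle and recruit effectors such as tethers and motor adaptors. GTPase-activating proteins switch them off, and GDP dissociation inhibitors carry the prenylated protein back through the cytosol. In neurons they act in synaptic vesicle release and in the transport of endosomes along axons and dendrites, and in oligodendrocytes vesicle traffic brings membrane components to the growing myelin sheath.

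Signals are linear MAS5 intensities, scaled by the authors to the same overall level on both arrays. The background level was 57.3 for the wild-type array and 51.1 for the mutant, set by the 95th percentile of signals from 151 probe sets of families such as olfactory receptors. Kif14 had signals of 6.85 and 0.733, both under background, so the arrays do not check the genotype through it. For Actb, a control of RNA integrity, the 3′ over 5′ signal ratio was 1.55 (wild-type) and 1.38 (mutant). All 10 general neuron markers were above background, with signals summing to 91989.5 (wild-type) and 93422 (mutant), and all 9 measured markers of myelinating oligodendrocytes were at least 2-fold lower in the mutant, with summed signals of 31880.0 and 2393. The median log2 ratio was -0.89 over 5 markers of oligodendrocyte precursors, 0.39 over 4 of cortical excitatory neurons, -0.28 over 5 of inhibitory neurons, -0.16 over 7 of astrocytes and -0.41 over 5 of endothelium, and their part in the values below was not tested. In whole tissue, fewer cells of a type and less RNA per cell cannot be told apart.

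The signals of most Rab genes were close on the 2 arrays. Of the 58 genes, 51 were above background on both arrays, Rab32 on the mutant array only, and 6 on neither. Among the 52 genes measured on at least 1 array, 24 had a lower and 28 a higher signal in the mutant, and their median log2 ratio of mutant over wild-type was 0.036. Across all 13681 genes measured in the same way, the median was 0.0058 and 49% had a lower signal. None of the 52 Rab genes was at least 1.5-fold lower, where 3.5% of all measured genes were. Rab7b, which the rule left out and which is not counted here, was at least 2.40-fold lower. A single Rab gene, Rab32, was at least 1.5-fold higher, against 3.81% of all genes. At a fold of 2 the counts of Rab genes were again 0 lower and 1 higher, beside 0.987% and 0.607% of all genes. Among the 51 genes that exceeded background on both arrays, log2 ratios ran from -0.29 for Rab13 to 0.53 for Rab26, and 44 of them differed by less than 1.2-fold, as did 9148 of 12772 genes in all. The 7 others were Rab13, Rab33a and Rab40c on the lower side and Rab26, Rab35, Rab36 and Rab38 on the higher side. These are sides by the brightest probe set, and Rab38 and Rab40c each had another that went the other way.

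**Figure D1:**
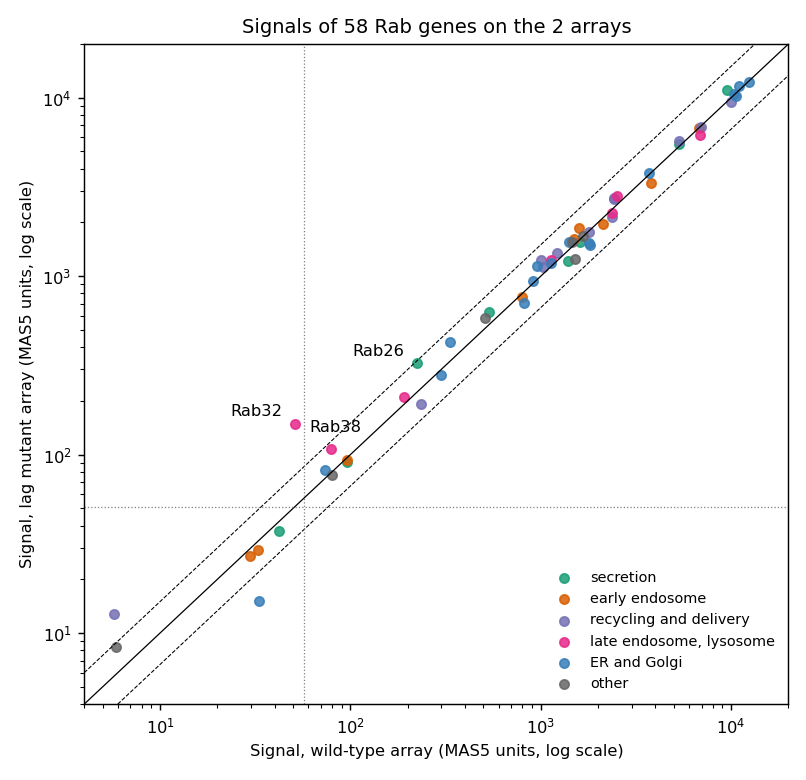
Signal of each of the 58 Rab genes on the wild-type array (horizontal) and the lag mutant array (vertical), both on log scales in MAS5 units, coloured by role. The solid line marks equal signals, the dashed lines 1.5-fold, and the dotted lines the background level of each array. Above both dotted lines the points lie within 1.5-fold, and Rab32, at 51.4 and 149, is to the left of the wild-type background level.

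Probe sets of high signal vary less between arrays, and many Rab genes have high signals, with a median of 1533 against 554 for all measured genes. The genes were therefore split at a mean signal of 1000 over both arrays. None of the 36 Rab genes at or over that signal was changed 1.5-fold either way, where 2.19% of 4615 genes were, and 33 of the 36 stayed within 1.2-fold, 91.7% against 84.6% of the 4615. Below it, 1 of 16 Rab genes was changed 1.5-fold, Rab32, against 9.92% of 9066 genes. Within 1.2-fold were 11 of these 16 Rab genes, 68.8%, and 63.0% of the 9066. The SD of the log2 ratio across genes was 0.15 for the 36 Rab genes and 0.27 for all genes of that signal, in which strongly changed myelin genes are included. These shares are descriptions across genes, which are not independent replicates.

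**Figure D2:**
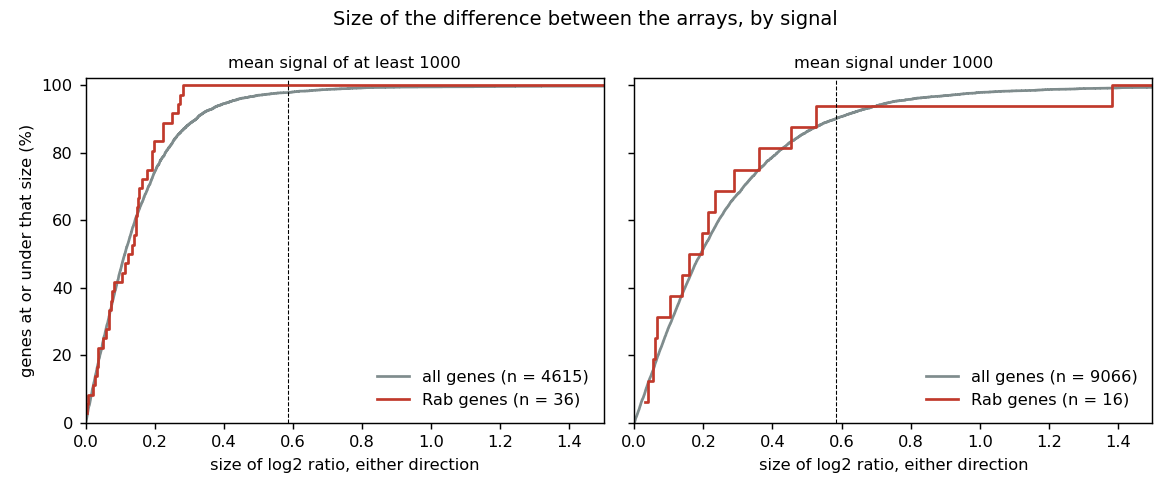
Cumulative share of genes, in percent, by the size of their log2 ratio in either direction, for Rab genes (red) and all measured genes (grey), split at a mean signal of 1000 MAS5 units. The dashed line marks 1.5-fold. All 36 Rab genes of high signal lie to its left, and 1 of the 16 of lower signal, Rab32, lies to its right.

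Of the 7 measured genes of regulated secretion, 6 lay within 1.2-fold by their brightest probe sets, beside 70.3% of all measured genes. Rab3a, which acts in docking and release of synaptic vesicles, read 9566 in wild-type and 10982 in mutant cerebrum, 1.15-fold higher. Its other probe set read 4282 and 4071, so the direction depended on the probe set. Rab3c, a close relative on the same vesicles, had signals of 5349.8 and 5482 by its brightest probe set, while its 4 probe sets above background ran from -0.34 to 0.23 on the log2 scale. Rab3b had 1599 and 1545, and Rab3d, known from secretory granules, 538 and 633. By the brightest probe sets no isoform of Rab3 differed by more than 1.18-fold, and the lowest of Rab3c, with 798 and 629, was 1.27-fold lower. Rab27b, which acts in exocytosis of secretory granules, read 1384 and 1211 by its brightest probe set, and was 1.42-fold higher by another, with 151 and 215. Rab27a, known for melanosome transport, had 95.7 and 91.4. Rab26, found on synaptic vesicles and secretory granules, had the highest ratio among genes above background on both arrays, with 225 and 325, 1.44-fold higher in the mutant by its single probe set. Rab37, a secretory granule Rab, was under background on both arrays, at 42.2 and 37.4. Over the 7 measured genes of the group, 3 were lower in the mutant, beside 49% of all measured genes, and 4 higher. Their median log2 ratio was 0.035, and its sign turned in 4 of 10 alternative settings.

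All 7 measured early endosome genes lay within 1.2-fold by their brightest probe sets, beside 70.3% of all measured genes. Rab5a, which drives fusion of early endosomes, had signals of 6798 and 6769.6, and its isoform Rab5c 3783 and 3347, 1.13-fold lower in the mutant. The third isoform, Rab5b, read 95.9 and 93.9, not far above background. Rab31, which links the trans-Golgi network with endosomes, had 2128 and 1966, and Rab21, a regulator of integrin traffic, 1489.8 and 1623 by its brighter probe set. Rab22a had 799 and 769 by its brightest probe set, which counts it as lower, while its 3 other probe sets had log2 ratios from 0.083 to 0.26. Rab24, linked to autophagy, was 1.17-fold higher, from 1585 to 1850.0, with a ratio of 1.22-fold in the same direction by its other probe set. Rab17 and Rab20, known from epithelia and phagosomes, were under background on both arrays, at 29.6 and 27.2 and at 32.5 and 29.1. Of the 7 measured genes, 5 were lower, beside 49% of all measured genes, and 2 higher, and the median was -0.031.

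Among Rabs of the recycling endosome and of delivery to the plasma membrane, 9 of the 11 measured genes lay within 1.2-fold. Across all measured genes 70.3% did. In the mutant 5 of the 11 were lower, beside 49% of all measured genes, and 6 higher, with a median of 0.11. Rab11a, a marker of recycling endosomes, read 5321 and 5729.6, and Rab11b 2413 and 2755. Rab14, which moves cargo between endosomes and the Golgi, had 10009 and 9502, and Rab10, which acts in polarised delivery, 6983 and 6817. Rab14 was read by 7 probe sets, all above background, with log2 ratios from -0.48 to 0.039. The lowest of these came from a dim probe set with signals of 260.2 and 186. Rab4a and Rab4b, of rapid recycling, had 1785 and 1758, and 1211 and 1355. Rab8a read 1027 and 1132, and Rab8b, its close relative in traffic to the cell surface, 2371 and 2139.9, so these isoforms differed in opposite directions by 1.10-fold and 1.11-fold. Rab15 had 2436 and 2696. At the edges of the group, Rab35, which returns receptors to the cell surface, was 1.22-fold higher, from 1009 to 1226, and Rab13, known from cell junctions, 1.22-fold lower, from 235 to 193. Rab25, an epithelial Rab, was under background on both arrays, at 5.71 and 12.8.

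In the late endosome and lysosome group 5 of 7 genes, 71.4%, lay within 1.2-fold, near the 70.3% of all measured genes. Rab7, which directs late endosomes to lysosomes, had signals of 6839 and 6183, 1.11-fold lower in the mutant, though a second probe set read 2449 and 2809, 1.15-fold higher. Rab9 and Rab9b, which act in return of receptors to the Golgi, had 2372 and 2249.6, and 1128 and 1238. Rab12 had 2522 and 2810.0 by its brighter probe set and 103 and 76.6 by the other. The direction of Rab7 and of Rab12 therefore depended on the probe set. Rab29, a Rab that recruits the kinase Lrrk2, had 192 and 211, and Lrrk2 itself 216 and 202. Rab38, which acts with Rab32 in the biogenesis of lysosome-related organelles such as melanosomes, read 79.0 and 108 by its brighter probe set, 1.37-fold higher in the mutant, and 85.9 and 50.1, under background in the mutant, by the other. Of the 7 genes of this group 2 were lower, beside 49% of all measured genes, and 5 higher. Their median was 0.14, and it was -0.076 with unique probe sets only.

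Rab32 was the single member past 1.5-fold. Its only probe set read 51.4 on the wild-type array, under background, and 149 on the mutant array. Against the background level this is at least 2.61-fold higher in the mutant, a lower bound. The call depends on that level. With background at the 99th percentile the wild-type signal was raised to a level above the mutant signal and the log2 ratio was -0.070, so no fold can be given there. Beside it, 8 of 9 measured markers of microglia, the macrophages of the brain, had a higher signal in the mutant, with a median log2 ratio of 0.46 and sums of 10257 and 13189.7. None of them was 2-fold higher. C1qa, a complement gene that defines microglia, had 1018 and 1370.2. The part of microglia in the Rab32 signal was not tested. Since a gene measured on 1 array alone had to differ there, Rab32 is given as a value and not as evidence on the family.

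Rabs of the endoplasmic reticulum and Golgi made up the largest group, with 16 genes, 15 of them measured. Rab1a, needed for transport from the endoplasmic reticulum to the Golgi, had signals of 11051 and 11575, and its isoform Rab1b 952 and 1133, 1.19-fold higher in the mutant. Rab6a and Rab6b, which act in retrograde traffic at the Golgi, read 10325 and 10519, and 12338 and 12304. Rab2a, of the same early pathway, had 10614.5 and 10196 and Rab2b 1131 and 1186. The 6 genes named so far therefore stayed within 1.2-fold by their brightest probe sets. Rab2a counts as lower by that probe set, with a log2 ratio of -0.058. Its other probe sets above background on both arrays were higher, from 0.034 to 0.73. Rab18, linked to lipid droplets and the endoplasmic reticulum, read 3711 and 3808. Rab33a and Rab33b, Golgi Rabs of which Rab33b also acts in autophagy, were lower in the mutant, from 1809.5 to 1504 and from 1789 to 1531, with log2 ratios of -0.27 and -0.22. Rab30 was 1.16-fold lower, from 817 to 705, and both of its probe sets were lower. Rab36 was 1.28-fold higher, from 333 to 428, with all 3 of its probe sets higher. Rab34 had 909.7 and 936, Rab43 301 and 280.3, Rab39 73.8 and 82.3, and Rab39b, a neuronal Rab, 1407 and 1563 by its brighter probe set. Rab19 was under background on both arrays, at 33.1 and 15.2. In all, 6 genes were lower, beside 49% of all measured genes, and 9 higher, with a median of 0.037.

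Of the 5 measured members outside these roles, 4 lay within 1.2-fold, beside 70.3% of all measured genes. Rab28, which acts at cilia, read 1677 and 1670.0, and Rab40b, a Rab that joins a ubiquitin ligase, 1467 and 1553. Rab40c was 1.21-fold lower by its brighter probe set, from 1506 to 1246, and 1.31-fold higher by the other, from 153 to 200.4. For Rab23, an inhibitor of hedgehog signalling, the signals were 512 and 586, 1.15-fold higher. Rab42 had 80.3 and 77.1. Rab44 was under background on both arrays, at 5.88 and 8.40.

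**Figure D3:**
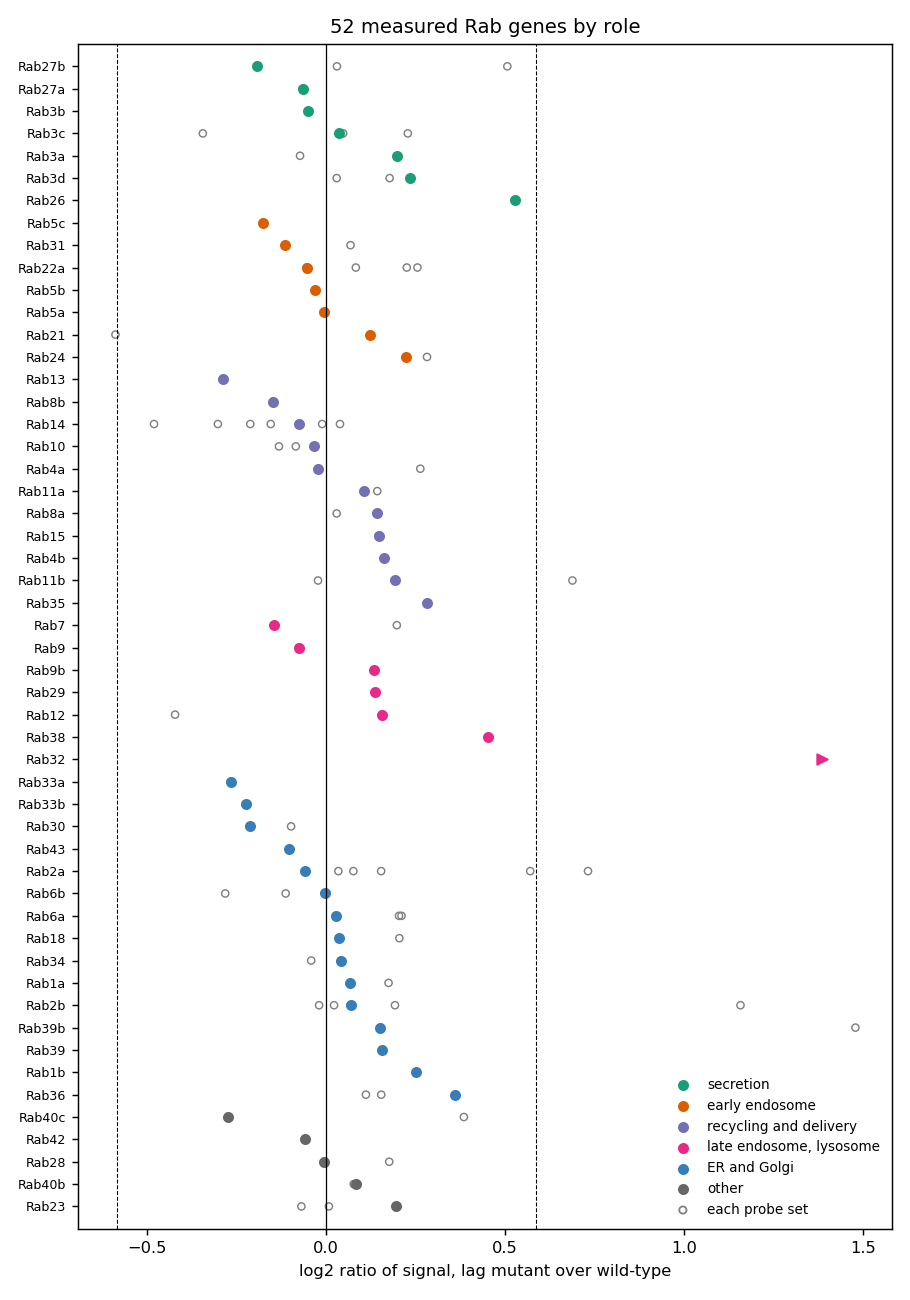
Mutant over wild-type log2 signal ratio (horizontal) of the 52 measured Rab genes, grouped and coloured by role. Filled points are the probe set of highest mean signal, open circles the other probe sets above background on both arrays, the triangle a lower bound, and dashed lines 1.5-fold. All filled points lie between the dashed lines, from -0.29 for Rab13 to 0.53 for Rab26, and open circles of Rab39b, Rab2b, Rab2a and Rab11b lie to the right of them, and that of Rab21 at the left one.

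Where a gene has several probe sets, these show how far a value depends on the probe set chosen. Why probe sets of a gene differ was not tested. Of the 129 probe sets, 113 were above background on at least 1 array, of which 4 (3.54%) were lower in the mutant by 1.5-fold or more and 5 (4.42%) were higher by as much. Across all 24712 such probe sets the shares were 5.02% and 4.08%. The 9 probe sets belonged to 9 genes, and only that of Rab32 was the one of highest signal of its gene. All 9 were dim, with a mean signal of at most 381.

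In 2 of the 30 Rab genes read by several probe sets above background on both arrays, 6.67%, the log2 ratios lay at least 1 apart, or at least 0.3 from 0 in opposite directions. Among 5825 genes in all the share was 8.58%. Rab39b read 191 and 532 by its dimmer probe set, 2.79-fold higher, and 1.11-fold higher by its brighter one. By the mean over both probe sets it would pass 1.5-fold, with a log2 ratio of 0.82. Rab2b had 193 and 429.7 by a probe set that reads several of its transcripts, 2.23-fold higher, and its 4 other probe sets lay between -0.020 and 0.19. In both genes the high ratio came from 1 probe set, and the arrays do not show which transcript each probe set reads.

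The remaining probe sets past 1.5-fold, named after their values were seen, split by direction. Rab2a was 1.66-fold higher by a probe set with 279 and 463, while its 2 probe sets of highest signal were within 1.05-fold. Rab11b was 1.61-fold higher by one with 136 and 219. In the lower direction, Rab21 read 457 and 304 by its dimmer probe set, just past 1.5-fold. Rab43, with 114 and 42.6, Rab5b, with 93.4 and 41.8, and Rab38, with 85.9 and 50.1, were under background in the mutant by these probe sets, and were lower by at least 2.23-fold, 1.83-fold and 1.68-fold. For each of these genes the probe set of highest signal lay within 1.4-fold. Rab43 had a further probe set that went the other way, from 41.5, under background, to 77.2. Over the 30 Rab genes the median distance between the highest and lowest log2 ratio was 0.27, against 0.31 for 5825 genes in all. Probe sets of 12 of the 30 genes, 40.0%, all pointed the same way, beside 45.5% of all 5825 genes.

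**Figure D4:**
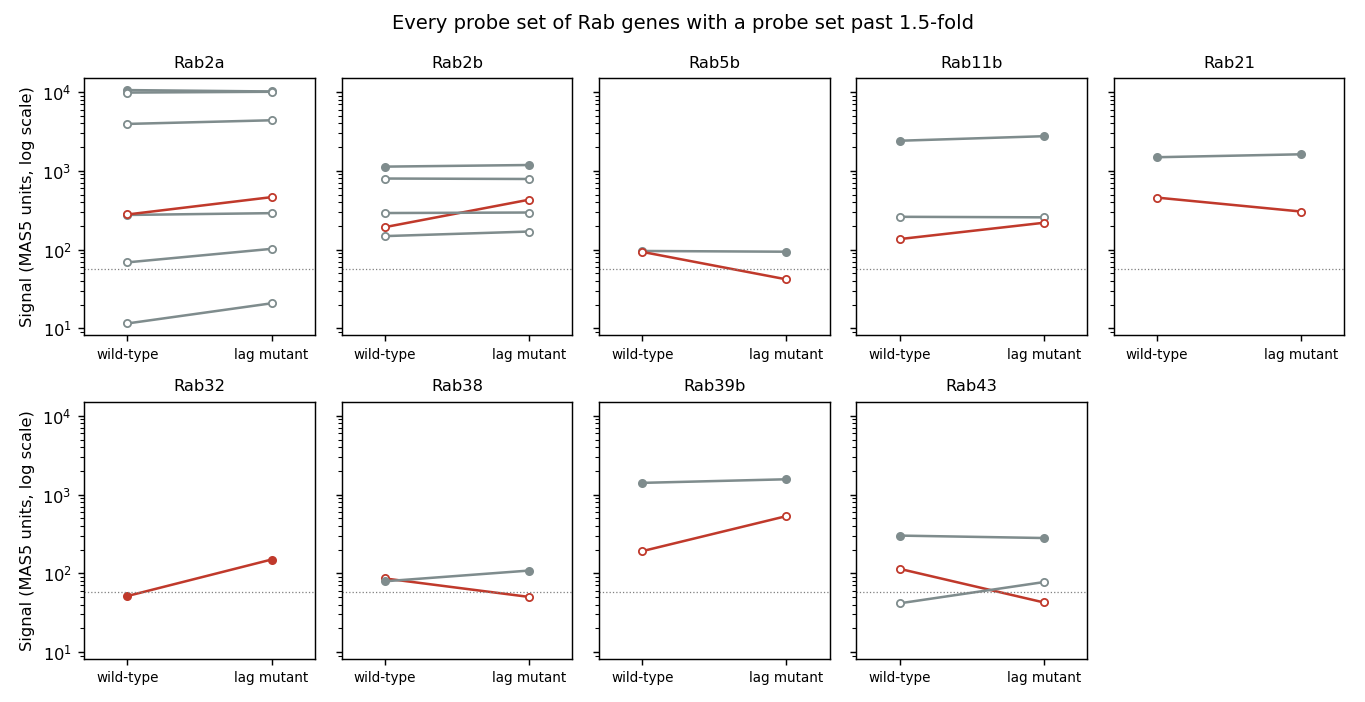
Signals of every probe set of the 9 Rab genes that have a probe set past 1.5-fold, on the wild-type (left) and lag mutant array (right), in MAS5 units on a log scale. Red lines are the probe sets past 1.5-fold, grey lines the others, filled points the probe set of highest mean signal and the dotted line the wild-type background level. Apart from Rab32, the filled points are on grey lines, the steepest being that of Rab38, from 79.0 to 108.

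Rab genes lie on 18 chromosomes, and 3 lie on chromosome 1, which carries Kif14. In the order of the RefSeq annotation of GRCm38.p6, Rab29 is the nearest of them, with 77 protein-coding genes in between. Between Rab29 and Rab7b there are 3. The left-out Rab7b, which acts at late endosomes, had 122 and 36.0, the latter under background, and was at least 2.40-fold lower, where Rab29 was 1.10-fold higher. Rab23 and Rab17, farther away, have been given above. The 4 genes on the X chromosome, Rab9, Rab9b, Rab33a and Rab39b, ran from -0.27 to 0.15, with 2 lower and 2 higher.

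Genes that act on Rab proteins were read from a list of regulators and effectors, of which 127 were on the array with a probe set of their own and 118 were measured. The rule by symbol also took in Tbc1d22bos, an opposite-strand transcript and not a GTPase-activating protein, which was under background on both arrays and so is not among the 118. By their brightest probe sets 2 were lower by 1.5-fold or more, beside 3.5% of all genes, and 1 was higher, beside 3.81%. By the probe set of largest decrease, a choice that favours lower values, 8 were lower and 0 higher. Of all genes 7.90% and 2.83% were so by that choice. In all 70, or 59.3%, had a lower and 48 a higher signal in the mutant, beside 49% lower of all genes, with a median of -0.051. Of the 7 genes for GDP dissociation inhibitors, escort proteins and prenylation, 5 lay within 1.2-fold by their brightest probe sets. Across all measured genes 70.3% did. By the brightest probe sets none of the 7 was past 1.5-fold. Rabif was 1.23-fold higher by that probe set, while its other one above background had a log2 ratio of -0.85. Gdi2, which extracts GDP-bound Rabs from membranes, had signals of 9396 and 8866, and Rabac1, a Rab receptor of Golgi membranes, 6076 and 6365. Chm, the escort protein that presents new Rabs for prenylation, had 1999 and 2410.4. The 6 probe sets of Gdi2 above background ran from -0.097 to 0.28 on the log2 scale, and the other one of Chm had -0.12.

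Of 30 measured exchange factors, 18, or 60%, were lower, beside 49% of all genes, and 12 higher, with a median of -0.066. Dennd5a, an exchange factor for Rab39 that also binds Rab6, had 6543 and 5721, and Gapvd1, which acts on Rab5, 3223 and 2943. Madd, which activates Rab3, read 1589.9 and 1586, and its other probe set above background had a log2 ratio of 0.27. The 4 probe sets of Gapvd1 above background ran from -0.39 to 0.10. Sh3bp5, an exchange factor for Rab11, was the regulator past 1.5-fold on the higher side, with 1028 and 1909, 1.86-fold higher. Its second probe set above background read 606 and 687, 1.13-fold higher, and the mean over both fell short of 1.5-fold, with a log2 ratio of 0.54.

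Of 38 measured genes in the class of GTPase-activating proteins, 26, or 68.4%, were lower, beside 49% of all genes, and 12 higher, with a median of -0.071. The class took in Tbc1d genes by symbol, and whether each acts on a Rab was not checked. Sgsm3 was 2.04-fold lower by its single probe set, from 245 to 120.3. Rab3gap1 and Rab3gap2, the subunits of a complex that acts on Rab3, had 1002 and 1122, and 549 and 528. Rabgap1l was 1.21-fold higher by its brightest probe set, from 3419 to 4129, while its other one above background had a log2 ratio of -0.013. Tbc1d14 had 3528 and 3266, and a log2 ratio of 0.097 by its other probe set above background. Among 43 measured effectors, 24, or 55.8%, were lower, beside 49% of all genes, and 19 higher, with a median of -0.020. Micall2, which binds Rab8 and Rab13 at cell junctions, was 1.69-fold lower by its single probe set, from 108 to 63.7. With an offset of 50 its log2 ratio was -0.47, short of 1.5-fold, and with background at the 99th percentile it was not measured. Rims1 and Rph3a, effectors of Rab3 at the synapse, read 3387 and 3184, and 1146 and 1283. Their other probe sets above background went the opposite way, with log2 ratios of 0.19 and -0.31. Osbpl1a, a Rab7 effector, had 6748 and 7044, and Myo5a, a myosin motor that Rab27 and Rab11 recruit, 4482 and 5389.9. The other probe set of Osbpl1a above background had a log2 ratio of -0.12, and the 3 of Myo5a ran from 0.10 to 0.39.

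**Figure D5:**
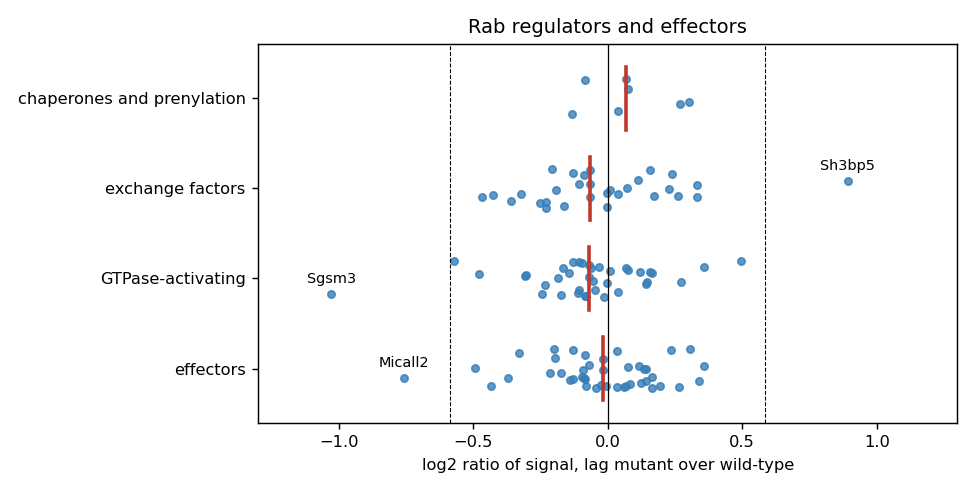
Mutant over wild-type log2 signal ratio (horizontal) of the 118 measured regulators and effectors of Rab proteins, by class, with vertical scatter for legibility only. Red bars are medians and dashed lines 1.5-fold. Sgsm3, Micall2 and Sh3bp5 lie past the dashed lines, and the medians lie between -0.071 and 0.067.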

How the data were processed

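Total RNA of cerebrum at postnatal day 14 was read on Affymetrix mouse arrays, 1 per genotype. The authors computed 1 intensity per probe set with MAS5 under its defaults, scaling each array globally to a target that the sources used here do not give. The deposited intensities are linear and carry no detection calls.

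Log2 ratios, mutant over wild-type, were computed from these intensities. Of the probe sets, 34958 had 1 gene in the annotation, 932 several and 9211 none. Only the first were named, with symbols updated through RefSeq (GRCm38.p6), where 34754 matched. A gene took the probe set of highest mean signal. Background was the 95th percentile of 151 probe sets for receptor, keratin-associated and defensin families, and signals under it were raised to it, so that a fold is then a lower bound. The fold of note was 1.5, and a fold of 1.2, set after the data were seen, marked signals called close. Members and lists were chosen with earlier results of these data known. Values were planned for members past 1.5-fold, the 3 of highest signal in each role, those with probe sets far apart, and regulators past 1.5-fold or among the 2 of highest signal in each class; the other genes named were picked with their values in view. The method was tested on simulated data with changes planted in genes of high signal only. That test does not cover dim probe sets such as that of Rab32. Alternatives changed background, probe set, normalization, offset, fold and symbols. Python 3.11.15, numpy 2.4.6, pandas 2.3.3, scipy 1.17.1 and matplotlib 3.10.9 were used. The 2 arrays limit the precision.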

Additional observations from a re-analysis of the deposited data

How the results depend on the processing

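No paired analysis was possible because the genotypes have a single sample each. The median over Rab genes lay between 0.0019 and 0.070 in the other settings. It was -0.052 with the probe set of largest decrease, a choice that favours lower values and moved the median of all genes to -0.072. Rab genes at least 1.5-fold lower were 4 of 52 with that probe set (Rab21, Rab38, Rab43 and Rab5b), beside 7.90% of all genes. They were 1 of 50 with unique probe sets only (Rab38), beside 3.87%, and 1 of 58 with no background level (Rab19), beside 9.28%. Rab genes at least 1.5-fold higher were 0 of 47 with background at the 99th percentile, beside 1.96% of all genes. There Rab32 had -0.070 because its wild-type signal was raised. They were 2 of 58 with no background level (Rab25 and Rab32), beside 12.2%, and 2 of 52 with the mean over all probe sets (Rab32 and Rab39b), beside 3.19%. Regulators and effectors past 1.5-fold, 2 lower and 1 higher, became 8 and 0 with the probe set that decreased most, 3 and 0 with the mean over all probe sets, 3 and 2 with no background level, and 1 and 1 both at the 99th percentile and with an offset of 50. Of all genes, 479 lower and 521 higher (3.50% and 3.81%) became 569 and 802 (3.89% and 5.48%) with background at the 90th percentile. They were 252 and 220 (2.24% and 1.96%) at the 99th, and 1689 and 2226 (9.28% and 12.2%) with no level. With the largest decrease they were 1081 and 387 (7.90% and 2.83%), and with the mean over all probe sets 444 and 436 (3.24% and 3.19%). Unique probe sets only gave 467 and 457 (3.87% and 3.79%), and the offset 332 and 359 (2.43% and 2.62%). Over 10 alternatives each, the sign of the role median turned 5 times for the members outside the named roles (-0.059 to 0.056), 4 for secretion (-0.066 to 0.12), 2 for late endosome and lysosome (-0.076 to 0.16), 1 for recycling (-0.022 to 0.13), 1 for endoplasmic reticulum and Golgi (-0.020 to 0.12) and 0 for early endosome (-0.11 to -0.0060). With 1 array per genotype, variation between mice, arrays and labelling cannot be told apart from genotype.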
